A study of Mus musculus with 12 samples.

Results

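The transcripts described here are the 10 members of the Myc, Max and Mxd network that the deposited mouse read-count table lists by name: Myc, Mycn, Mycl1, Max, Mlx, Mxd1, Mxd3, Mxd4, Mxi1 and Mnt. They were taken by symbol from 23965 gene rows, and the set was chosen with earlier results of these data known. Each had 1 row, and all 10 were among the 15608 genes tested, with at least 77 counts in every library. Neurospheres, free-floating cultures of neural progenitors, had been grown for 3 days from ventral midbrain of E11.5 embryos of the CD-1 strain. The 4 groups were exposed for 5 h in N2 medium to DMSO as vehicle (control), to GW3965, an agonist of the liver X receptors, to CT99021, an inhibitor of glycogen synthase kinase 3 (GSK3), or to GW3965+CT99021. Doses are not in the labels, and no genotype other than the strain is named for any group. Each group had 3 libraries, numbered 1 to 3. Since the labels name no separate culture or litter behind a number, the p-values below weigh only the spread among libraries, which may be technical. Those with the number as a block weigh only the part of that spread not shared by libraries of the same number.

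Proteins of this network are transcription factors with a basic helix-loop-helix leucine zipper. Myc, Mycn and Mycl1 (L-Myc, now named Mycl) activate genes as dimers with Max at E-box sequences, whereas Mxd1, Mxd3, Mxd4, Mxi1 and Mnt compete for Max and recruit Sin3 corepressors to the same sequences. Mlx is a Max-like partner that also dimerises with Mlxip and Mlxipl, sensors of glucose metabolites. In progenitors the network is known for its hold on cell growth, ribosome production and the balance of division and differentiation. GSK3 phosphorylates Myc protein, which marks it for ubiquitination by Fbxw7, and Myc is widely cited as a Wnt target gene. The values below are of transcripts, not of proteins.

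The libraries held between 9646424 and 21314093 counts in genes. Levels are CPM, that is counts scaled to a common library size with edgeR's TMM factors, and errors are SD with n = 3 unless stated. Libraries with the same number deviated together, so fold changes, standard errors (SE) and adjusted p are from edgeR's quasi-likelihood test with the replicate number as a block, with Benjamini-Hochberg adjustment over 15608 genes, and "rose" and "fell" mean adjusted p under 0.05 in it. Without the block that test called 0 of the 10 members in every comparison. In CT99021 against control, GW3965+CT99021 against control and GW3965+CT99021 against GW3965 it called 0.0577%, 0.115% and 0.0769% of all genes. In these, 5, 4 and 5 members were at an unadjusted p under 0.05, against 1514 (9.70%), 1867 and 1771 (11.3%) of the 15608 genes. DESeq2 without the block called 2, 3 and 2 members in these, and limma-voom 0. As a check of the compounds, Srebf1, a liver X receptor target, rose by 1.40 ± 0.09 (log2, SE) with GW3965, and Axin2, a Wnt target, by 1.68 ± 0.14 with CT99021. Abca1, a further check of GW3965, had 59.8 ± 46.4 CPM in controls and an uneven 235 ± 209 CPM (106 to 476) with GW3965. Nkd1, a further check of CT99021, had 68.5 ± 28.9 CPM in controls and 326 ± 211 CPM with CT99021. All 10 neural progenitor and all 8 midbrain markers were detected in every library, and so were those of other cell types with a row in the table. The neural progenitor markers summed to between 2900 and 4455 CPM in controls, 3134 and 4538 with GW3965, 2682 and 3751 with CT99021, and 2774 and 3796 with both compounds. Vim held the largest part of these sums, with means of 1913 CPM in controls and 1790 with CT99021. The median log2 fold change of the 10 was -0.29 with CT99021 against control and -0.36 with GW3965+CT99021 against GW3965. Of these 10, 4 fell with CT99021 against control (7.59% of all genes fell) and 7 with GW3965+CT99021 against GW3965 (8.81%). In the same comparisons 3 and 2 of 7 neuron markers fell and 1 and 0 rose, and 1 and 2 of 8 midbrain markers fell. Neuron markers summed to between 1514 and 2169 CPM in controls, 1432 and 2179 with GW3965, 1308 and 1869 with CT99021, and 1151 and 2152 with both. Of 8 mesenchyme and pericyte markers 1 and 4 rose, where 8.23% and 11.8% of all genes did. These summed to between 272 and 2814 CPM in controls, 284 and 2442 with GW3965, 373 and 3692 with CT99021, and 943 and 3033 with both. Of 5 tested markers each of endothelial cells, microglia and erythroid cells, 1, 1 and 0 fell with CT99021 against control, and 0 rose. With GW3965+CT99021 against GW3965, 1 endothelial marker rose (11.8% of all genes), and 1 endothelial and 1 microglia marker fell (8.81%). With GW3965+CT99021 against control, 1 endothelial marker rose (11.3% of all genes) and 1 microglia marker fell (8.95%). Of the erythroid markers 2 fell with GW3965+CT99021 against control (8.95% of all genes) and 0 against GW3965. Erythroid markers summed to between 3273 and 11877 CPM in controls, 2078 and 9421 with GW3965, 2988 and 9151 with CT99021, and 2463 and 7315 with both. The part of these cell types in the results below was not tested, and in these bulk samples fewer cells of a type and less RNA per cell cannot be told apart. In CT99021 replicate 1, 7.95% of the counts came from Lars2, which held at most 0.142% elsewhere.

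Per kilobase of listed transcript, Mycl1 (27.0 ± 5.41 CPM per kb), Max (26.2 ± 4.77), Myc (23.4 ± 6.91) and Mxd4 (21.9 ± 8.39) had the highest levels among the members in control spheres. Mxd3 (14.3 ± 1.61), Mxi1 (12.7 ± 2.62), Mlx (12.5 ± 0.79) and Mnt (12.5 ± 0.91) followed on this scale. Mxd1 (7.63 ± 1.31) and Mycn (7.44 ± 2.14) had the lowest levels per kb. In this order the control libraries of each neighbouring pair overlapped, except that Mnt lay above Mxd1 in all of them. So the control spheres as a whole held transcripts of all 3 Myc genes and of all 5 repressors. Whether single cells held them together cannot be told from bulk samples.

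Exposure to CT99021 lowered 6 of the 10 transcripts and raised none at the threshold in the fit with the block. Myc, Mycl1, Mxd1, Mxd4, Mxi1 and Mnt fell with CT99021 against control, where 7.59% of all tested genes fell, and the same 6 fell with GW3965+CT99021 against GW3965, where 8.81% did. These comparisons share no library, though they come from 1 fit, and 5.52% of all tested genes fell in both. The libraries of 6 members (Mycl1, all 5 repressors) were all lower with CT99021 than in controls (7.62% of all genes), and those of 0 members all higher (7.22%). Against GW3965, 5 members were lower without overlap (7.20% of all genes) and 1, Max, was higher (8.18%). Without control replicate 2 the genes called in the first comparison, in either direction, numbered 652 in place of 2470, and without GW3965 replicate 1 those in the second 1396 in place of 3218, so these shares rest on single libraries too. The median log2 fold change of the 10 members was -0.63 in the first and -0.51 in the second, against 0.02 and 0.01 for all genes. Because the members were chosen with earlier results of these data known, this contrast with all genes is descriptive. The same 6 fell with GW3965+CT99021 against control (8.95% of all genes). That comparison uses the control libraries again and so does not stand apart from the first. The remaining members, Mycn, Max, Mlx and Mxd3, did not pass in these 3 comparisons.

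**Figure D1:**
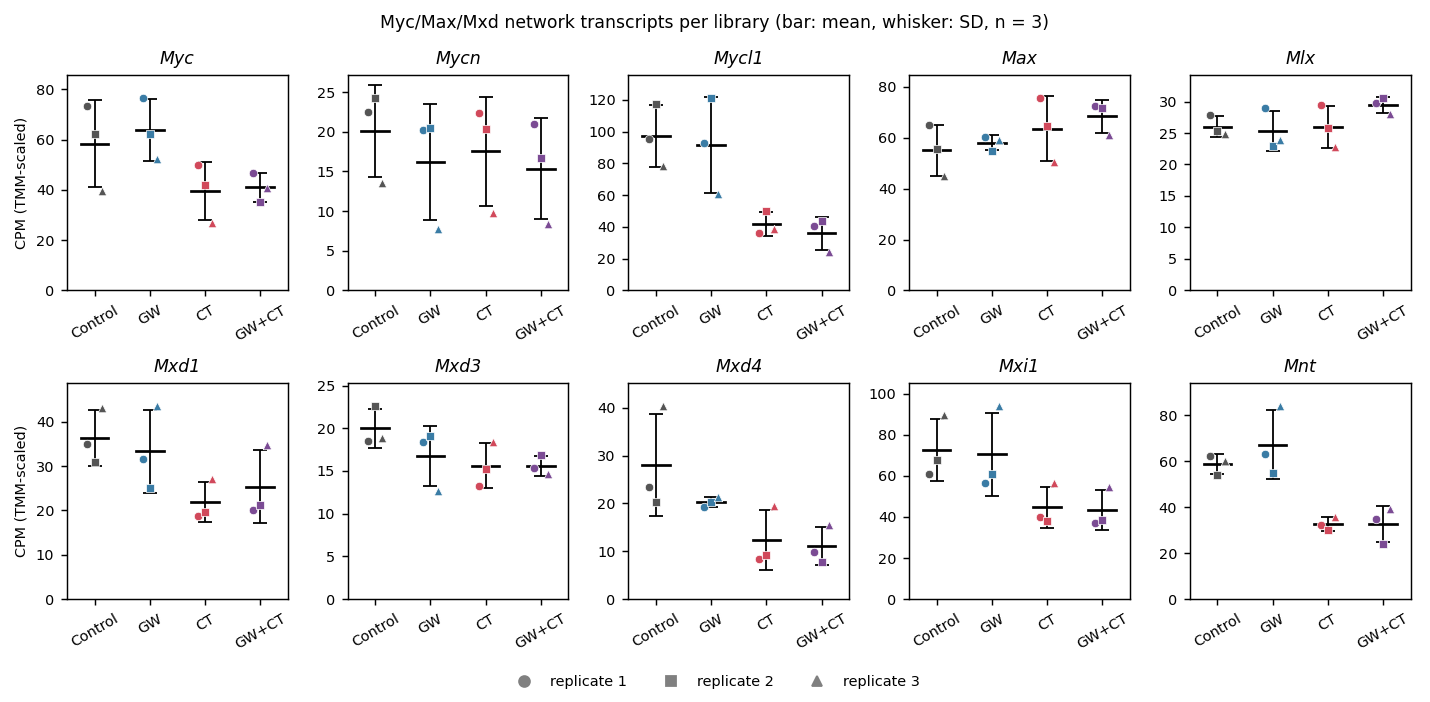
CPM (TMM-scaled, linear axes from 0) of the 10 members in the 12 libraries, with points for replicates 1 (circle), 2 (square) and 3 (triangle), bars for the mean and whiskers for the SD (n = 3). GW is GW3965 and CT is CT99021. For Mycl1 and Mnt all 6 libraries with CT99021 lie below all 6 without it, whereas the libraries of Mycn and Mlx overlap between control and CT99021.

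Mycl1, the member of the Myc family with the largest fall, is on chromosome 4 (listed position 122673241 in mm9, plus strand). It had 95.4, 117 and 78.5 CPM in control replicates 1, 2 and 3 and 36.1, 50.3 and 38.9 CPM with CT99021. With GW3965 it had 92.7, 121 and 60.8 CPM, and with both compounds 40.5, 43.6 and 24.2 CPM. Every library with CT99021 was thus below every library without it. The fall was 2.29-fold with CT99021 against control (log2 fold change -1.20 ± 0.14 SE, edgeR adjusted p = 0.00104) and 2.51-fold with GW3965+CT99021 against GW3965 (-1.33 ± 0.14, adjusted p = 0.000513). Mycl1 passed under all 17 alternatives of the blocked fit in both comparisons, with adjusted p of at most 0.0098 and 0.00576.

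Myc itself (chromosome 15, position 61816795, plus strand), the proto-oncogene of the family, fell less. Control replicates 1, 2 and 3 held 73.5, 62.1 and 39.6 CPM of Myc and the CT99021 libraries 49.8, 42.1 and 26.8 CPM. The GW3965 libraries held 76.7, 62.3 and 52.5 CPM and those with both compounds 46.7, 35.3 and 40.9 CPM. Control and CT99021 overlapped, because control replicate 3 was low, but within each replicate number the log2 ratio was -0.56. The groups did not overlap between GW3965 and GW3965+CT99021. The log2 fold change of Myc was -0.57 ± 0.15 (1.48-fold lower, edgeR adjusted p = 0.0294) with CT99021 against control, and -0.62 ± 0.15 (1.54-fold lower, adjusted p = 0.0162) with GW3965+CT99021 against GW3965. Both calls rest on single libraries. The first was lost without control replicate 1 or 2 or any 1 of the CT99021 libraries (adjusted p up to 0.145). The second was lost without replicate 1 or 2 of GW3965+CT99021 or of GW3965 (up to 0.0752). The direction held under all 17 alternatives. With GW3965+CT99021 against control Myc had a log2 fold change of -0.47 ± 0.15 (adjusted p = 0.0459), with log2 ratios of -0.65, -0.81 and 0.05 in replicates 1, 2 and 3. That call passed under 10 of the 17 alternatives, and was lost without CT99021 replicate 2 or without replicate 1 or 2 of any of the other groups (up to 0.192).

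Mycn (chromosome 12, position 12942898, minus strand), the family member best known from neural progenitors, did not pass in any comparison. It had 22.4, 24.3 and 13.5 CPM in control replicates 1, 2 and 3, and 22.4, 20.4 and 9.72 CPM with CT99021. The values were 20.2, 20.5 and 7.75 CPM with GW3965 and 21.0, 16.7 and 8.41 CPM with both compounds. In all 4 groups replicate 3 was the lowest, and the groups overlapped. The log2 fold change with CT99021 was -0.24 ± 0.14 (edgeR adjusted p = 0.266), with a 95% interval of -0.54 to 0.06. With both compounds against control it was -0.43 ± 0.14 (adjusted p = 0.052), and this passed with relative log expression factors, in DESeq2, without control replicate 1 and without GW3965 replicate 3, each with the block.

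Within the family the make-up of the transcript pool moved from Mycl1 toward Myc and Mycn. Mycl1 held 47.2% ± 5.21 of the length-scaled Myc family signal in controls and 44.2% ± 5.86 with GW3965. With CT99021 its share was 35.2% ± 8.48 and with both compounds 31.0% ± 5.91. The ratio of Mycl1 to Myc (CPM per kb) was 0.902, 1.31 and 1.38 in control replicates 1, 2 and 3 and 0.504, 0.831 and 1.01 with CT99021. Against GW3965 (0.839, 1.36 and 0.804), the libraries with both compounds had 0.603, 0.857 and 0.412. It was lower in all 6 pairs of equal replicate number. No test was made on this ratio.

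Max (chromosome 12, position 78038255, minus strand), the obligate partner of Myc and Mxd proteins, and Mlx did not follow the 6 that fell. Max had 65.0, 55.7 and 44.9 CPM in control replicates 1, 2 and 3 and 75.8, 64.8 and 50.3 CPM with CT99021. It had 60.2, 54.7 and 59.1 CPM with GW3965 and 72.6, 71.8 and 61.1 CPM with both compounds, so each library with CT99021 lay above its counterpart of the same number without it. The log2 fold changes did not pass: 0.20 ± 0.11 with CT99021 against control (edgeR adjusted p = 0.228, 95% interval -0.03 to 0.44) and 0.24 ± 0.11 with GW3965+CT99021 against GW3965 (adjusted p = 0.144). With both compounds against control the value for Max was 0.32 ± 0.11 (adjusted p = 0.0573). It passed there, with the block kept, in DESeq2, without CT99021 replicate 3, without GW3965 replicate 3 and without the 4 libraries numbered 3. Without GW3965 replicate 3 or without those 4, Max also passed against GW3965 (log2 fold changes of 0.35 and 0.31).

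Mlx (chromosome 11, position 100948503, plus strand) had 27.9, 25.3 and 24.8 CPM in control replicates 1, 2 and 3 and 29.4, 25.8 and 22.8 CPM with CT99021. It had 29.0, 23.0 and 23.9 CPM with GW3965 and 29.8, 30.6 and 28.0 CPM with both compounds. Its log2 fold change with CT99021 was -0.01 ± 0.09 (edgeR adjusted p = 0.977), with a 95% interval of -0.21 to 0.20. Against GW3965 the combination gave 0.22 ± 0.09 (adjusted p = 0.112). Mlx overlaps Psmc3ip in RefSeq and Mxd3 overlaps Prelid1, both with rows of their own in the table, and whether the counting used strand is not given in the sources used here.

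Of the 5 repressors that bind Max, 4 fell with CT99021 on either background. Mnt, the most broadly expressed of them (chromosome 11, position 74644325, plus strand), had 62.1, 53.9 and 60.1 CPM in control replicates 1, 2 and 3 and 32.1, 29.9 and 35.7 CPM with CT99021. With GW3965 it had 63.0, 54.8 and 83.8 CPM, and with both compounds 35.0, 24.0 and 39.1 CPM. Every library with CT99021 was below every library without it. Mnt fell by 0.85 ± 0.11 on the log2 scale (1.81-fold, edgeR adjusted p = 0.00194) and, against GW3965, by 1.04 ± 0.11 (2.05-fold, adjusted p = 0.000668).

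Mxd4 (chromosome 5, position 34519228, minus strand), a Mad family repressor linked to differentiating cells, had 23.5, 20.3 and 40.3 CPM in control replicates 1, 2 and 3. It had 8.45, 9.19 and 19.6 CPM with CT99021, 19.2, 20.2 and 21.4 CPM with GW3965 and 9.93, 7.81 and 15.5 CPM with both compounds. Control replicate 3 stood highest, yet the groups with and without CT99021 did not overlap in either comparison. The log2 fold change of Mxd4 was -1.19 ± 0.19 (2.29-fold lower, edgeR adjusted p = 0.0041), and -0.95 ± 0.19 against GW3965 (1.93-fold lower, adjusted p = 0.0084).

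Mxi1 (chromosome 19, position 53384895, plus strand), also called Mxd2, had 60.9, 67.6 and 89.5 CPM in control replicates 1, 2 and 3 and 40.0, 37.9 and 56.3 CPM with CT99021. With GW3965 it had 56.7, 60.8 and 93.8 CPM and with both compounds 37.0, 38.7 and 54.7 CPM. In each group replicate 3 was the highest, and every group with CT99021 lay below its comparison group. Mxi1 had the smallest SE of the members, with log2 fold changes of -0.70 ± 0.07 (edgeR adjusted p = 0.000555) and -0.68 ± 0.07 (adjusted p = 0.00058) in the 2 comparisons, both 1.6-fold lower to 2 digits.

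Mxd1 (chromosome 6, position 86597038, minus strand), the Mad protein first described as a rival of Myc for Max, had 34.9, 31.0 and 43.2 CPM in control replicates 1, 2 and 3 and 18.8, 19.7 and 27.2 CPM with CT99021, with no overlap. It had 31.5, 25.1 and 43.5 CPM with GW3965 and 20.1, 21.2 and 34.8 CPM with both compounds, where the groups overlapped through replicate 3. Mxd1 fell by 0.74 ± 0.11 on the log2 scale (1.67-fold, edgeR adjusted p = 0.0031) with CT99021, and by 0.41 ± 0.11 (adjusted p = 0.0262) with GW3965+CT99021 against GW3965. The latter call was lost without GW3965 replicate 1 and without either of replicates 1 and 2 of the combination (adjusted p up to 0.128). For Mnt, Mxd4 and Mxi1 in both comparisons, and Mxd1 against control, the calls passed under all 17 alternatives of the blocked fit.

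Mxd3 (chromosome 13, position 55426528, minus strand), a Mad family member known from proliferating progenitors, was the repressor that did not pass. It had 18.5, 22.6 and 18.9 CPM in control replicates 1, 2 and 3 and 13.2, 15.3 and 18.4 CPM with CT99021. It had 18.4, 19.1 and 12.7 CPM with GW3965 and 15.3, 16.8 and 14.6 CPM with both compounds. Control and CT99021 did not overlap, but by a margin of less than 1 CPM. The log2 fold change was -0.34 ± 0.16 (edgeR adjusted p = 0.183, 95% interval -0.70 to 0.02) and, against GW3965, -0.11 ± 0.16 (adjusted p = 0.681). Without CT99021 replicate 3 Mxd3 passed against control at -0.57, and without the 4 libraries numbered 3 at -0.54.

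**Figure D2:**
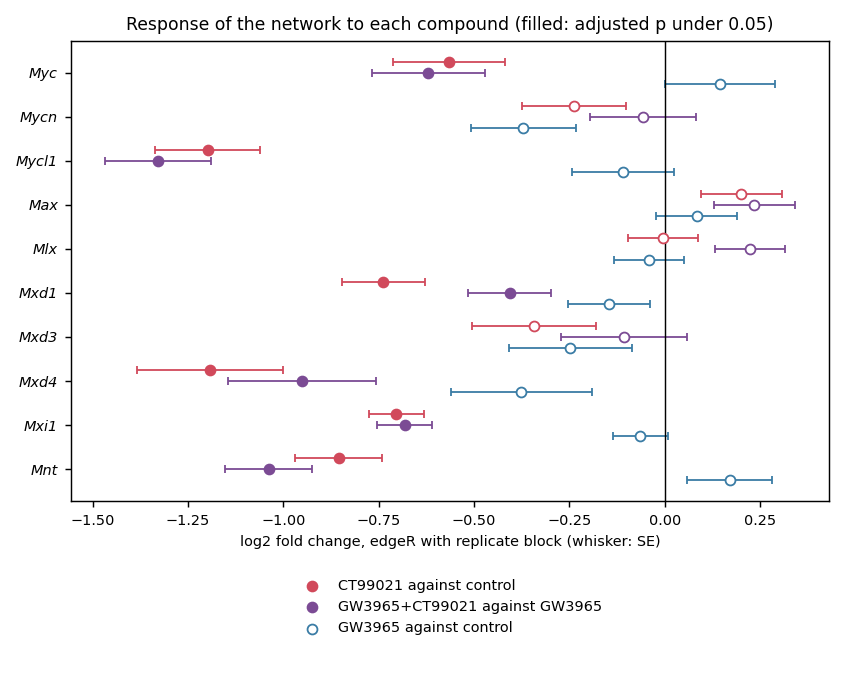
Log2 fold change of each member (edgeR with the replicate block, whiskers are SE) for CT99021 against control, GW3965+CT99021 against GW3965 and GW3965 against control, with filled points for adjusted p under 0.05. In each CT99021 comparison 6 filled points lie between -1.33 and -0.41, and the GW3965 comparison has none.

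Promoter sequence is shown because the network binds the E-box CACGTG and several of its own genes carry this word near their start. RefSeq promoters (GRCm38.p6, 250 bases before to 50 after a gene's start) were matched for 9 of the 10 members, Myc being the exception, and CACGTG, which reads the same on both strands, was present in 4: Max, Mlx, Mxd4 and Mnt. Among all genes in that table, 8.09% had the word in at least 1 promoter. The stretches run 5′ to 3′ on the gene's strand with the E-box in capitals, and come from minus-strand chr12:76962246-76962345 for Max, plus-strand chr11:101087190-101087289 for Mlx, minus-strand chr5:34187877-34187960 for Mxd4 and plus-strand chr11:74830754-74830853 for Mnt.
Max: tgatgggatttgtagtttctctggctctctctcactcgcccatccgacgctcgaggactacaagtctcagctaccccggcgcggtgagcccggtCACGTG
Mlx: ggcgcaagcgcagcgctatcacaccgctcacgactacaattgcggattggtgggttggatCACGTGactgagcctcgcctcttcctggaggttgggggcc
Mxd4: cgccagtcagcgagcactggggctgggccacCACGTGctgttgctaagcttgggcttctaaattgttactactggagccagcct
Mnt: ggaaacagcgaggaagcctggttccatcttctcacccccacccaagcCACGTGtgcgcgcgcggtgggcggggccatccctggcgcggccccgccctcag
The word begins 3, 40, 219 and 123 bases before the start of Max, Mlx, Mxd4 and Mnt. Of these 4 genes Mxd4 and Mnt fell with CT99021, and Max and Mlx had fold changes that did not pass. The word CTTTGA, the core of sites bound by Tcf and Lef factors, was searched on both strands of the same windows and found for Mycn, against 18.2% of all genes. These are matches of letters and not measured binding.

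Summed per library, both the Myc family and its rivals had lower mean levels with CT99021, and no test was made on the sums, which include Mycn and Mxd3. The 3 Myc genes added up to 57.8 ± 13.1 CPM per kb in controls, 57.0 ± 14.1 with GW3965, 33.9 ± 7.62 with CT99021 and 32.1 ± 5.78 with both compounds. The 5 repressors added up to 69.1 ± 11.7, 61.5 ± 6.74, 40.2 ± 9.86 and 39.7 ± 7.10 CPM per kb in the same order. The ratio of the sums was 0.872 ± 0.308 in controls and 0.902 ± 0.360 with CT99021, and 0.950 ± 0.315 with GW3965 and 0.837 ± 0.254 with both. Its spread followed the replicate number: 0.487 to 0.589 in the 4 libraries numbered 3, and 0.941 to 1.16 in the other 8. In every group, replicate 3 had the lowest family sum and the highest repressor sum.

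**Figure D3:**
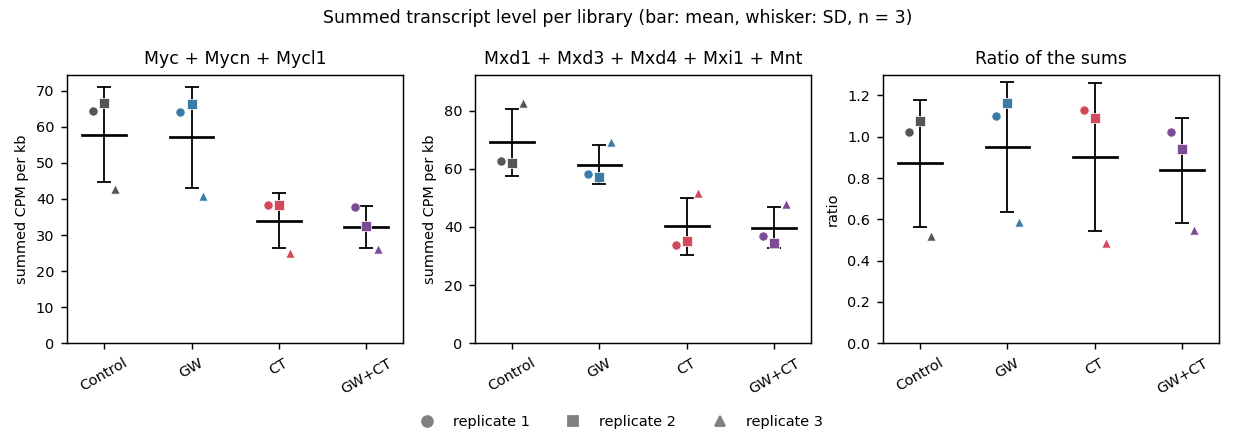
Summed CPM per kb of the 3 Myc family genes, summed CPM per kb of the 5 repressors, and the ratio of the sums, per library (linear axes from 0, symbols by replicate number, bars for the mean and whiskers for the SD, n = 3). Both sums are lower with CT99021 (33.9 and 40.2) than in controls (57.8 and 69.1), and in the ratio the libraries numbered 3 (triangles) stand at 0.487 to 0.589.

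GW3965 left the network without a call. Against control 0 of 10 members passed in edgeR with the block (0.0192% of all genes did), with 1, Mycn, at an unadjusted p under 0.05 (2.47% of all genes), and 0 in edgeR, DESeq2 or limma-voom without it. Without the block 0 members, and 0.147% of all genes, were at an unadjusted p under 0.05. Mycn had a log2 fold change of -0.37 ± 0.14, with log2 ratios of -0.15, -0.24 and -0.79 in replicates 1, 2 and 3. Myc (0.15 ± 0.14), Mycl1 (-0.11 ± 0.13) and Mnt (0.17 ± 0.11) did not pass either. The 95% intervals of these 3 were -0.18 to 0.47, -0.41 to 0.19 and -0.08 to 0.42. Adding GW3965 to CT99021 gave 0 calls of 10 as well (0.0192% of all genes), with 0 members at an unadjusted p under 0.05 in edgeR with the block (6.52% of all genes) or without it (1.06%), and 0 called in DESeq2 or limma-voom. The interaction of the compounds had 0 calls among the members by the same tools, and 0 at an unadjusted p under 0.05 in edgeR with the block (3.35% of all genes) or without it (0.474%). The estimate farthest from 0 was that of Mxd1, at 0.33 ± 0.15 with a 95% interval of -0.01 to 0.67. The interval for Mycl1 was -0.56 to 0.30 and that for Mnt -0.54 to 0.17, so differences of that size between the backgrounds were not resolved.

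Genes that Myc is known to induce moved the other way from Myc and Mycl1. Of 36 measured, 27 rose and 0 fell with CT99021 against control, where 8.23% of all genes rose. With GW3965+CT99021 against control 28 rose (11.3% of all genes), and 30 rose and 0 fell with GW3965+CT99021 against GW3965, where 11.8% did. Their median log2 fold changes were 0.41 and 0.49, against 0.02 and 0.01 for all genes. The list is textbook knowledge, was written with earlier results of these data known, and holds many genes of ribosome production, so it is no separate evidence of a direction. Rrp9, which processes ribosomal RNA as part of a small nucleolar particle, rose from 22.1 ± 8.32 to 45.6 ± 15.6 CPM with CT99021 (log2 fold change 1.05 ± 0.13, edgeR adjusted p = 0.00149). Mybbp1a, a nucleolar protein, rose from 235 ± 54.7 to 402 ± 109 CPM (0.77 ± 0.08, adjusted p = 0.000518). Nolc1, a nucleolar chaperone, changed by 0.68 ± 0.06 and Tfrc, the transferrin receptor, by 0.61 ± 0.07. These 4 passed under all 17 alternatives in both comparisons. Srm, spermidine synthase (0.71 ± 0.14), and Odc1, ornithine decarboxylase (0.37 ± 0.09), enzymes of polyamine synthesis, also rose, as did the nucleolar genes Npm1 (0.40 ± 0.06), Nop56 (0.65 ± 0.08) and Fbl (0.33 ± 0.06) and the chaperonin gene Hspd1 (0.48 ± 0.07). Further nucleolar and ribosome production genes that rose with CT99021 were Ncl (0.33 ± 0.07), Npm3 (0.63 ± 0.10), Nop58 (0.38 ± 0.09), Bop1 (0.42 ± 0.08), Ddx18 (0.56 ± 0.09), Pa2g4 (0.45 ± 0.06) and Polr1b (0.60 ± 0.08), a subunit of RNA polymerase I. So did the nucleotide synthesis genes Cad (0.52 ± 0.10), Ppat (0.56 ± 0.08), Nme1 (0.41 ± 0.08) and Nme2 (0.29 ± 0.09) and the translation factor genes Eif4e (0.25 ± 0.05) and Eif4g1 (0.27 ± 0.06). Phb, prohibitin (0.42 ± 0.08), and Hk2, hexokinase 2 (0.74 ± 0.20), rose as well. All of these also rose with GW3965+CT99021 against GW3965. Against control the call of Odc1 was lost without CT99021 replicate 1 or 2 and without control replicate 2 or 3, and that of Srm without CT99021 replicate 2.

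Of the further genes Npm3, Ppat, Polr1b, Pa2g4, Ddx18 and Phb passed against control under all 17 alternatives. Leaving out control replicate 2 ended the calls of Ncl, Nop58, Bop1, Cad, Nme1, Nme2, Eif4e, Eif4g1, Hk2 and Cdc25a there. Ncl, Nop58, Nme2, Eif4e, Eif4g1 and Hk2 also lost theirs without CT99021 replicate 2, and Ncl, Bop1, Nme2, Eif4e, Eif4g1 and Hk2 without control replicate 1. Control replicate 3 had that effect on Ncl, Nop58, Nme2 and Hk2, CT99021 replicate 1 on Nop58, Nme2, Eif4e and Hk2, and CT99021 replicate 3 on Eif4g1 and Nme2. Nme2 passed under 5 of the 17, being lost also with relative log expression factors, with no filter and without any 1 library of the combination or GW3965 replicate 1. Against GW3965, Hk2 was lost without GW3965 replicate 1 or 2 and without replicate 1 or 3 of the combination. Of the cell cycle genes of that list, the phosphatase gene Cdc25a rose in both comparisons (0.40 ± 0.07 and 0.45 ± 0.07). The cyclin gene Ccnd2 (-0.09 ± 0.12 with CT99021), the kinase gene Cdk4 (0.09 ± 0.12) and E2f2 (0.02 ± 0.17) did not pass in either, and were named after their values were seen. With single libraries left out, 15 to 30 of the 36 rose against control (15 without control replicate 2, 18 without CT99021 replicate 2) and 27 to 30 against GW3965. Against GW3965, 29 rose with relative log expression factors, with no filter or in DESeq2, and 30 rose without the libraries numbered 3. With GW3965 alone 0 of the 36 passed. Without the block edgeR called 0 of them in any comparison.

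**Figure D4:**
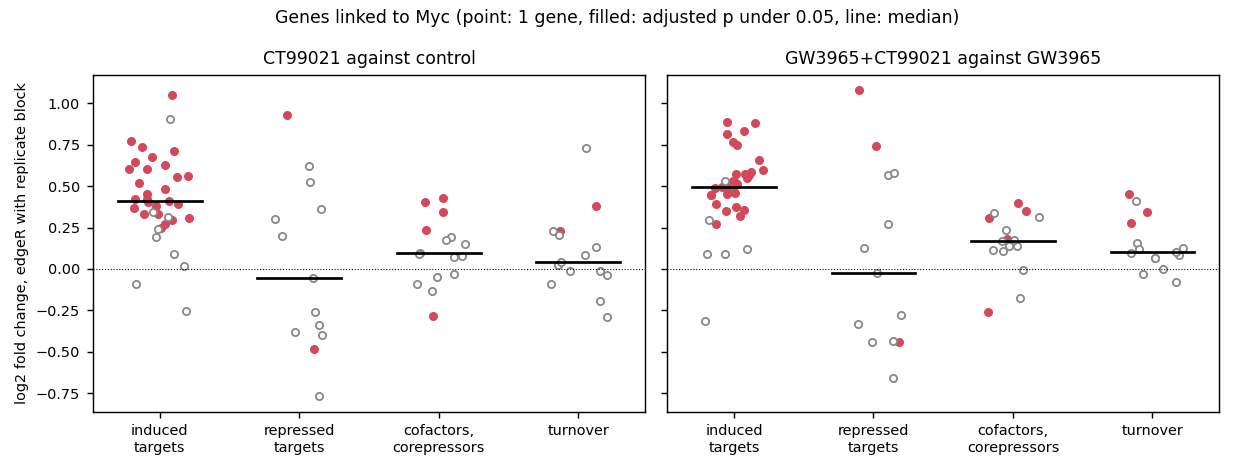
Log2 fold change (edgeR with the replicate block) of single genes in the lists of Myc-induced targets, Myc-repressed targets, Myc cofactors with Mxd corepressors, and Myc turnover, for CT99021 against control (left) and GW3965+CT99021 against GW3965 (right). Filled points passed at adjusted p under 0.05 and lines mark the median, which for induced targets is 0.41 on the left and 0.49 on the right.

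Genes known to be repressed by Myc did not move in 1 direction. Of 13 measured, 1 rose and 1 fell with CT99021 against control, where 8.23% and 7.59% of all genes did, and 2 rose and 1 fell with GW3965+CT99021 against GW3965 (11.8% and 8.81%). Such counts are near the shares over all genes. The medians were -0.05 and -0.02. Cdkn1a, which encodes the cyclin-dependent kinase inhibitor p21, rose by 0.93 ± 0.22 (133 ± 38.0 to 261 ± 105 CPM, edgeR adjusted p = 0.0207). Cdkn1b, which encodes the related inhibitor p27, changed by -0.48 ± 0.11 (84.5 ± 5.02 to 60.6 ± 1.73 CPM, adjusted p = 0.0175). Both calls ended when replicate 1 of the controls, or replicate 2 of either group, was left out, and that of Cdkn1a also when replicate 1 of CT99021 was. Against GW3965 Cdkn1a had 0.74 ± 0.22 (adjusted p = 0.039) and Cdkn1b -0.44 ± 0.11 (adjusted p = 0.0198), calls that passed under 10 and 14 of the 17 alternatives. Ndrg1, a stress and differentiation gene, had -0.77 ± 0.24 (adjusted p = 0.0543) and Gadd45b, a stress response gene, 0.53 ± 0.19 (adjusted p = 0.0936) with CT99021 against control. Against GW3965 the calls of Cdkn1a and Cdkn1b were both lost without replicate 1 or 2 of GW3965+CT99021 or without GW3965 replicate 2, and Cdkn1a also without GW3965 replicate 1 or any 1 control library.

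Among 16 cofactors of Myc and corepressors of Mxd proteins, 4 rose and 1 fell with CT99021 against control. With GW3965+CT99021 against GW3965 4 rose and 1 fell, but the 4 were not all the same genes. Wdr5 and Ruvbl2 rose in both, and the others that rose against GW3965 are outside the rule for naming genes. Over all genes 8.23% rose and 7.59% fell in the former and 11.8% and 8.81% in the latter, so the 1 that fell is near the share over all genes. Wdr5, a chromatin scaffold that binds Myc, rose by 0.35 ± 0.07 and 0.35 ± 0.07 in the 2 comparisons (edgeR adjusted p = 0.00975 and 0.00688). Sin3a, the corepressor that Mxd proteins recruit, changed by -0.28 ± 0.06 and -0.26 ± 0.06 (adjusted p = 0.0161 and 0.0184). Zbtb17 (Miz-1), through which Myc represses genes, rose by 0.40 ± 0.08 against control (adjusted p = 0.0113), and against GW3965 had 0.23 ± 0.08 (adjusted p = 0.0707). Cdk9, the kinase of the elongation factor P-TEFb, rose by 0.43 ± 0.12 against control (adjusted p = 0.0345) and had 0.34 ± 0.12 against GW3965 (adjusted p = 0.0694). Ruvbl2, an ATPase of Myc coactivator complexes, rose by 0.24 ± 0.07 (adjusted p = 0.0471) and 0.31 ± 0.07 (adjusted p = 0.0142). Ruvbl2 passed against control under 3 of the 17 alternatives (DESeq2, relative log expression factors and without GW3965 replicate 3), and against GW3965 was lost without GW3965 replicate 1 or 2 or the combination's replicate 2. Cdk9 was lost against control without replicate 1 or 2 of either group or without GW3965 replicate 1. Without control replicate 2, Wdr5, Sin3a and Zbtb17 did not pass against control. Nor did Wdr5 and Sin3a without control replicate 1, Zbtb17 and Sin3a without CT99021 replicate 2, or Sin3a without CT99021 replicate 1. Against GW3965, Sin3a lost its call without GW3965 replicate 1 or 2 and without replicate 2 or 3 of the combination.

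Of 15 genes of Myc turnover and phosphorylation, 2 rose and 0 fell with CT99021 against control, and 3 rose and 0 fell with GW3965+CT99021 against GW3965. Both counts of genes that rose are near the shares over all genes, 8.23% and 11.8%. Skp2, a ubiquitin ligase subunit that acts on Myc, alone rose in both, by 0.38 ± 0.11 and 0.45 ± 0.11 (edgeR adjusted p = 0.037 and 0.0158). Gsk3a, which encodes a target of CT99021, rose by 0.23 ± 0.06 against control (adjusted p = 0.0389) and had 0.16 ± 0.06 against GW3965 (adjusted p = 0.109). Usp36, a nucleolar enzyme that removes ubiquitin from Myc, had 0.73 ± 0.23 against control (adjusted p = 0.0597) and Huwe1, a ubiquitin ligase of Myc, -0.29 ± 0.09 (adjusted p = 0.0611). Gsk3b, the other target of CT99021, had -0.01 ± 0.08, and Fbxw7, the ligase subunit that reads the GSK3 mark, 0.03 ± 0.08, neither passing. Gsk3b and Fbxw7 were named after their values were seen. Skp2 and Gsk3a passed against control under 9 and 8 of the 17 alternatives, and both were lost with no filter and without replicate 1 or 2 of control or of CT99021. Skp2 was also lost there without CT99021 replicate 3, GW3965+CT99021 replicate 1 or GW3965 replicate 1, and Gsk3a without any 1 of the libraries with both compounds or GW3965 replicate 2. Against GW3965 Skp2 was lost without GW3965+CT99021 replicate 2.

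The rest of the extended network, Mga, Mlxip and Mlxipl, had 0 of 3 past the test in every comparison of edgeR with the block. Mlxip, the Mlx partner MondoA, had 0.11 ± 0.08 with CT99021 (edgeR adjusted p = 0.417) and Mga, a Max partner with a T-box domain, -0.09 ± 0.12 (adjusted p = 0.675). Of 3 measured targets of Mlx and its partners, Arrdc4, an arrestin family gene, was the 1 that rose (11.8% of all genes) with GW3965+CT99021 against GW3965 by 1.17 ± 0.24 (adjusted p = 0.00926), from 8.66 ± 3.62 to 19.5 ± 4.57 CPM. Against control CT99021 gave Arrdc4 0.75 ± 0.24 (adjusted p = 0.0569). Txnip, a thioredoxin inhibitor, had 50.4 ± 32.2 CPM in controls and 42.2 ± 18.0 with CT99021 (log2 fold change -0.18 ± 0.26, adjusted p = 0.676), and 0.41 ± 0.27 (adjusted p = 0.302) against GW3965. Khk, ketohexokinase, had 0.38 ± 0.26 (adjusted p = 0.347) and 0.07 ± 0.26 (adjusted p = 0.882).

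Likeness across libraries was taken from log2 CPM less the mean of each replicate number. This leaves the treatment differences in, so a high r between members that fell with CT99021 restates their fall. Over the 12 libraries, which share their treatments, Pearson's r was 0.957 between Mxi1 and Mnt, 0.96 between Mycl1 and Mxd4, 0.933 between Myc and Mnt and 0.0759 between Myc and Mycn. Max ran opposite to most, with r = -0.887 against Mxd4 and -0.831 against Mycl1. Among 12271 genes at a mean of 5 CPM or more, those most like Mycl1 on this measure were Pdlim3 (r = 0.996), Numa1 (0.995) and Pcyt1b (0.994). Those most like Myc were Dusp1 (0.989), Cdh10 (0.977) and Cdkn1b (0.976), and those most like Mnt Fam100a (0.995), Zcchc12 (0.995) and Dusp6 (0.992). For Mxi1 the genes were Nipal3 (0.992), Atg13 (0.991) and Chn1 (0.989). Mxd4 was closest to Gm13375 (0.989), Ap3s2 (0.989) and Bmf (0.985), and Mxd1 to Oplah (0.985), Lsm14b (0.956) and Chd6 (0.952). These correlations are descriptions of 12 libraries in 4 treatment groups and carry no test.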

How the data were processed

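RNA from 12 mouse neurosphere libraries was sequenced from TruSeq libraries made from 0.5 µg of total RNA, per the labels' protocols. The deposited file is 1 table of unnormalized counts by feature, with a transcript length beside each, per the file headers. Bowtie and the mm9 build appear, without a role or version, per the submitters' processing notes. How reads were assigned to genes, with which annotation and whether by strand, is not given in the sources used here. The 1217 repeat rows stayed out of totals and tests (0.196% to 0.643% of counts), and locus rows of one gene were kept apart.

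Gene rows were fitted with edgeR 4.0.16 in R 4.3.3 (TMM, filterByExpr, quasi-likelihood F test, a mean per group, all 12 libraries in 1 fit). That fit, without a block, is the planned main one. Same-numbered libraries of different groups correlated in their deviations from group means at r = 0.496 to 0.828 in all 18 pairs (-0.677 to 0.241 in the 36 pairs with different numbers). Deviations from a group mean cancel within the group, so the negative values partly follow from the positive ones by construction. The labels do not state what a number marks, so the pairing rests on these correlations. Printed values are therefore from the blocked fit, in which each number has its own term and which lowered the common biological coefficient of variation from 33.4% to 12.7%. SE is the log2 fold change divided by the root of the F statistic. Log2 CPM used a prior count of 2, and intervals are 95%. DESeq2 1.42.0 and limma 3.58.1 were alternatives. The procedure was also run on counts simulated from its own fitted means and spread, which cannot show whether the block is the right model here.

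The members and lists were chosen with earlier results of these data known. The genes named are all members, checks of the compounds and, of each list, the 4 with the smallest p in CT99021 against control plus any past the test in both CT99021 and GW3965+CT99021 against control. Those named otherwise are marked. The alternatives were DESeq2, limma-voom, relative log expression factors, no filter, leaving out libraries, and the block. Counts of list genes under them were added after seeing the data. Read counts without molecular identifiers set the precision. Promoters are from RefSeq (GRCm38.p6) and were not mixed with mm9 positions, which are as listed.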

Additional observations from a re-analysis of the deposited data

How the results depend on the processing

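The fit without the block called 0, 9, 18, 0, 12 and 0 genes (23, 1514, 1867, 165, 1771 and 74 at an unadjusted p under 0.05) in GW3965, CT99021 and GW3965+CT99021 against control, GW3965+CT99021 against CT99021, GW3965+CT99021 against GW3965, and the interaction. Without the block, limma-voom, relative log expression factors and no filter each called 0 members in every comparison. With the replicate block, for the first 5 of these in order, calls were 3, 2470, 3163, 3 and 3218 genes. They were 3, 2452, 3094, 3 and 3135 with relative log expression factors, 5, 2098, 2726, 3 and 2804 with no filter, and 7, 2903, 3494, 13 and 3416 in DESeq2. Without the 4 libraries numbered 3 they were 3, 3869, 3893, 9 and 4339, and without these and GW3965+CT99021 replicate 2 they were 5, 5398, 2959, 90 and 3642, with 60 for the interaction. DESeq2 without the block called 2, 321, 573, 2 and 464 genes.

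Members past the test in CT99021 against control, GW3965+CT99021 against control and GW3965+CT99021 against GW3965 numbered 6, 6 and 6 with the block, 6, 7 and 6 with relative log expression factors, 6, 6 and 6 with no filter, 6, 8 and 6 in DESeq2 with the block, and 2, 3 and 2 in DESeq2 without it. They numbered 7, 8 and 7 without the libraries numbered 3, and 8, 6 and 6 without those and GW3965+CT99021 replicate 2. In the last setting Max and Mxd3 joined in CT99021 against control, at log2 fold changes of 0.20 and -0.54.

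Leaving out 1 library at a time, with or without the block, gave 0 to 5, 3 to 3003, 4 to 3760, 0 to 10 and 3 to 3683 genes, and 0 to 6, 0 to 8 and 0 to 7 members. With the block kept the range was 1 to 5, 652 to 3003, 1175 to 3760, 2 to 10 and 1396 to 3683 genes, and 5 to 6, 5 to 8 and 4 to 7 members. There CT99021 against control had 747 and 652 genes without control replicates 1 and 2, and 1075 and 1114 without CT99021 replicates 1 and 2. GW3965+CT99021 against control had 1326, 1175 and 2054 without control replicates 1, 2 and 3, and 1526 without GW3965+CT99021 replicate 2. Against GW3965 it had 1396 and 1484 without GW3965 replicates 1 and 2, and 2078 and 1625 without its own replicates 1 and 2. Without the block edgeR, like limma-voom, called 0 members, so all the members' calls of the blocked fit ended there. Under the 17 alternatives that kept the block, some calls of Myc and Mxd1 ended. Those of Myc passed under 12, 10 and 13 of 17, and that of Mxd1 against GW3965 under 14. The cause was not tested.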
